A study of Mus musculus with 2 samples.

Results

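Endothelial cells were picked out of droplet RNA profiles of single cells from the tissue around the cardiac neural crest, dissected from E9.5 mouse embryos. A cell was selected on its own counts: it had at least 1 unique molecular identifier (UMI, 1 counted molecule) in 3 or more of the 9 endothelial markers Pecam1, Cdh5, Tek, Tie1, Emcn, Egfl7, Esam, Plvap and Cldn5, and less than 5% of its UMIs came from 5 globin genes. This chose 842 of 21723 cells. Of these, 465 were among the 11958 WT cells and 377 among the 9765 KO cells. The KO embryos were Prdm6f/f; Wnt1-Cre2; ZsGreen1 and the WT embryos Prdm6+/+; Wnt1-Cre2; ZsGreen1, all C57BL/6 and E9.5, so that both carried Cre and the green reporter and differed in the floxed Prdm6 alleles. Wnt1-Cre2 makes Cre in the Wnt1 lineage, to which neural crest cells (NCCs) belong and most endothelial cells do not. The labels call all cells cardiac NCCs, but no sorting step was described, and embryos were pooled without a way to assign their cells here. Each genotype was 1 library. Differences between WT and KO therefore have no replicate check and none was tested. All intervals below are 95% intervals that cover counting error only, and fewer cells of a kind and less RNA per cell were separated only where a value per cell is given.

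Endothelial cells line the blood vessels and, as the endocardium, the inside of the heart tube. They are held together by VE-cadherin and PECAM1 and are kept alive and guided by VEGF and angiopoietin signals, which they receive through the receptor tyrosine kinases KDR, FLT1, FLT4, TEK and TIE1. Arterial endothelium depends on Notch and SOXF factors, venous endothelium on NR2F2, and endocardium shares GATA factors with the heart muscle it lies against. At this stage the pharyngeal arch arteries carry blood, which presses on the endothelium and acts on flow-sensitive genes such as Klf2.

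Members of the ETS family are the transcription factors best known for endothelial genes, and they bind DNA around a GGAA core. The letters AGGAAG and CGGAAG were searched on both strands in promoter windows, from 250 bases before to 50 after each transcript start (RefSeq, GRCm38.p6). Of the 34 genes that define or lead these cells, 21 had a window, and 16 of the 21 held the letters (76.2%, interval 52.8 to 91.8%). Over all 27025 genes with a window the share was 49.8%. Counted by window, 63.0% of the 27 windows of these genes held the letters, against 46.5% of all 32851. Genes with several windows counted once if any window held the letters. A match is a run of letters and no measured binding site. The 3 windows shown belong to the genes with the highest fold over other cells that held the letters, which stand in capitals, and each sequence reads 5′ to 3′ on the strand of the gene.
Cd34 (chr1:194938571-194938870, plus strand): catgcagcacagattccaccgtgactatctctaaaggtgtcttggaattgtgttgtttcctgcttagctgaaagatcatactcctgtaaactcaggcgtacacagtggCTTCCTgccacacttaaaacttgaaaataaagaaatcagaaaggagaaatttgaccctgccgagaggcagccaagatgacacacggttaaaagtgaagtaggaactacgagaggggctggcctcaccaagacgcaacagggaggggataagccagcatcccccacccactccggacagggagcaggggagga
Tie1 (chr4:118489800-118490099, minus strand): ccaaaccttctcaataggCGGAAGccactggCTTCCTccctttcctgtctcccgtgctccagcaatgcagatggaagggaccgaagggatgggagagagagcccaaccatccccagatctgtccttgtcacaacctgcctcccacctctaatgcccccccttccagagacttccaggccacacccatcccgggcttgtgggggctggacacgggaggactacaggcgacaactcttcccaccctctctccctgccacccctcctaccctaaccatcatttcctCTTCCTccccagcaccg
Emcn (chr3:137340828-137341127, plus strand): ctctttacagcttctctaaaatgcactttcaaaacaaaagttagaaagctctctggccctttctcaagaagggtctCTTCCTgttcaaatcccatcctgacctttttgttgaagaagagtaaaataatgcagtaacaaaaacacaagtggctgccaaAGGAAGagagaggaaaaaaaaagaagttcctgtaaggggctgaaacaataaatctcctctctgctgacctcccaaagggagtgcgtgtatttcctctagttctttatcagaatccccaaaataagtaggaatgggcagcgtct
Cd34 had 1 match, Tie1 had 3 and Emcn had 2. Cd34 encodes a sialomucin of endothelial and blood progenitor surfaces, Tie1 an orphan receptor of the angiopoietin system, and Emcn the sialomucin endomucin.

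The label was checked against 11 endothelial genes that the rule did not use, Kdr, Flt1, Cd34, Eng, Ramp2, Ecscr, Cd93, Icam2, Erg, Fli1 and Sox18. Their summed level, in UMIs per 1000000 UMIs (CPM), was 134 CPM in WT cells with 0 rule markers and 236 CPM in cells with 1. It was 1283 CPM in the 260 WT cells with 2 rule markers, just outside the rule, and 2619 CPM in the 150 WT cells with 3, just inside. In KO the values were 1185 CPM in 179 cells with 2 and 2419 CPM in 107 cells with 3. The step lay between 1 and 3 markers in both libraries, and cells with 2 markers held a mixture: 44.2% of them in WT and 39.7% in KO had a UMI in 2 or more of the 11 genes, against 86.0% and 89.7% of the cells with 3. The globin limit left out 4 WT cells, with 15.2 to 24.0% globin UMIs, and 1 KO cell with 6.89%, whereas the members reached 3.15% in WT and 0.670% in KO.

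**Figure D1:**
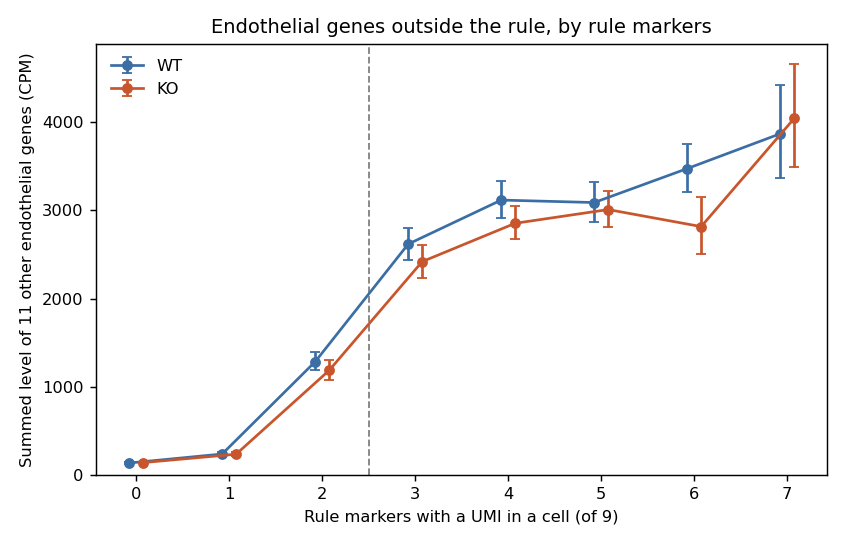
Summed level in CPM of 11 endothelial genes outside the rule (vertical axis) against the number of rule markers with a UMI in a cell (horizontal axis), for WT and KO cells with less than 5% globin UMIs and up to 7 markers; bars are 95% Poisson intervals and the dashed line is the rule. Levels were 1283 and 1185 CPM at 2 markers and 2619 and 2419 CPM at 3 in WT and KO.

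The rule asks for detected markers and so favours deep cells. Members had a median of 2222 UMIs in WT and 2792 in KO, and the other cells had 1574 and 1666. The share of endothelial cells was 3.89% in WT (interval 3.55 to 4.25%) and 3.86% in KO (3.49 to 4.26%), a log2 ratio of KO over WT of −0.01 (−0.20 to 0.18). Only 10597 of 11958 WT and 9640 of 9765 KO cells reached a depth of 1000 UMIs. Among these cells, before any thinning, the log2 ratio of the shares was −0.14 (−0.33 to 0.05). Once each of them had been thinned to 1000 UMIs, the rule found 2.16% in WT (1.89 to 2.46%) and 1.55% in KO (1.31 to 1.81%), a log2 ratio of −0.48 (−0.78 to −0.19). The 2 readings differ: at the depth sequenced the shares were alike within counting error, and at equal depth the KO share was lower. Members in KO were deeper relative to members in WT than other cells were, and how much of either ratio this carries was not tested. Of the 26 cell barcodes found in both libraries, 1 belonged to a KO member and 0 to a WT member.

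UMIs of markers of other cell types were counted in the members, where droplet background also gives UMIs. Csf1r and Ptprc, which define macrophages and white blood cells, had 0 UMIs in members of both libraries, and Gp9, Gp1bb, Ppbp, Gp5 and Treml1 of megakaryocytes had 0 as well. The 8 macrophage markers measured together had 29.9 CPM in WT and 41.7 CPM in KO, the 8 megakaryocyte markers 22.5 and 19.0 CPM. Myh11, a marker of mature smooth muscle, had 0 UMIs. Cardiac muscle markers had 1186 CPM in WT and 969 CPM in KO summed over 12 genes, and 54 WT and 51 KO members had a UMI in 4 or more of them. A UMI in 2 or more was found in 60.6% of WT and 63.9% of KO members, but also in 54.2% and 60.0% of erythroid cells, which should lack them. Neural tube markers had 926 and 905 CPM over 10 genes, with 4 or more of them in 11 WT and 6 KO members. The shares with 2 or more were 43.0% and 51.5% at the depth sequenced, 17.5% and 12.2% at 1000 UMIs, and 26.7% and 35.6% in erythroid cells at the depth sequenced. Mesenchyme markers had 609 and 534 CPM, mural markers 336 and 254 CPM and epithelial markers 98.2 and 96.7 CPM. The rule markers had 3075 and 2781 CPM on the same scale. Leaving out members with a UMI in 4 or more markers of another type (cardiac muscle, macrophage, megakaryocyte, neural tube, neural crest or epithelial) kept 399 WT and 317 KO members. Without the members left out the ratio of the endothelial shares was −0.04 (−0.25 to 0.17), and that of Klf2, given further on as −1.03, was −1.01. The cardiac marker Myl4 went from −0.65 to −0.28. Globin UMIs made up a median of 0.335% of a member's UMIs in WT and 0.145% in KO, below the 0.507% and 0.241% of other cells. No doublet caller was run.

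The genes that stood out were ranked by the lower of their folds in the 2 libraries. The fold of the level in members over that in all other cells (10 CPM added to each side) describes the selection and was not tested, since the same cells were chosen for endothelial markers. Of the rule markers, Cdh5, which encodes VE-cadherin of the adherens junction (chr8:104101625-104144511, plus strand, GRCm38), was 30.6-fold higher in WT and 34.6-fold in KO. It had 968 UMIs in WT (906 CPM, 849 to 965) and 888 in KO (842 CPM, 787 to 899). A Cdh5 UMI was found in 86.7% of WT and 86.5% of KO members, and in 57.5% and 54.1% at 1000 UMIs per cell. In erythroid cells, which should lack it, the shares were 0.833% and 0% at median depths of 2421 and 2581 UMIs. Plvap, whose product forms the diaphragms of endothelial vesicles, was 22.8-fold and 21.7-fold higher. Tek (6.72 and 7.84), Egfl7 (7.34 and 6.17) and Cldn5 (6.02 and 5.93) had the lowest folds of the 9 rule markers.

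The 25 genes outside the rule that led by fold included receptors. Flt4, the receptor for VEGF-C, was 15.0-fold higher in WT and 14.3-fold in KO, and its fold exceeded those of Kdr (12.2 and 12.2) and Flt1 (11.8 and 10.7), the VEGF-A receptors. Eng, the endoglin co-receptor for BMP9 and BMP10, was 13.6-fold and 12.3-fold higher. Calcrl (10.1 and 9.74) and Ramp2 (10.5 and 10.5) encode the 2 chains of the adrenomedullin receptor, Plxnd1 (9.88 and 10.6) a semaphorin receptor, and S1pr1 (8.49 and 9.88) a receptor for sphingosine-1-phosphate. Flt4 marks lymphatic endothelium in later life but Prox1, the factor that specifies it, had 18 UMIs in WT and 17 in KO, and folds of 0.633 and 0.641.

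Cd34 led the genes outside the rule, at 23.4-fold in WT and 21.5-fold in KO. Its UMIs were in 65.2% of WT and 70.6% of KO members, against 1.67% and 2.22% of erythroid cells. Transcription factors among the leaders were the SOXF members Sox17 (11.6 and 11.5) and Sox18 (7.84 and 7.75) and the ETS factor Elk3 (8.82 and 7.86). Rasip1 (8.24 and 9.60), Rhoj (8.87 and 7.59) and Fgd5 (8.35 and 9.54) act on small GTPases that shape endothelial cells and their lumens. Erg, an ETS factor used as an endothelial marker, was counted only 10 times in WT and 15 times in KO, while the related Fli1 had 318 and 401 UMIs and folds of 6.48 and 6.56. The remaining leaders were Tmem204, Cd93, Adgrf5, Gngt2, Scarf1, Vamp5, Ecscr, Exoc3l4, Rasgrp3 and S100a16, with folds from 7.61 to 18.9 in the lower or higher library.

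**Figure D2:**
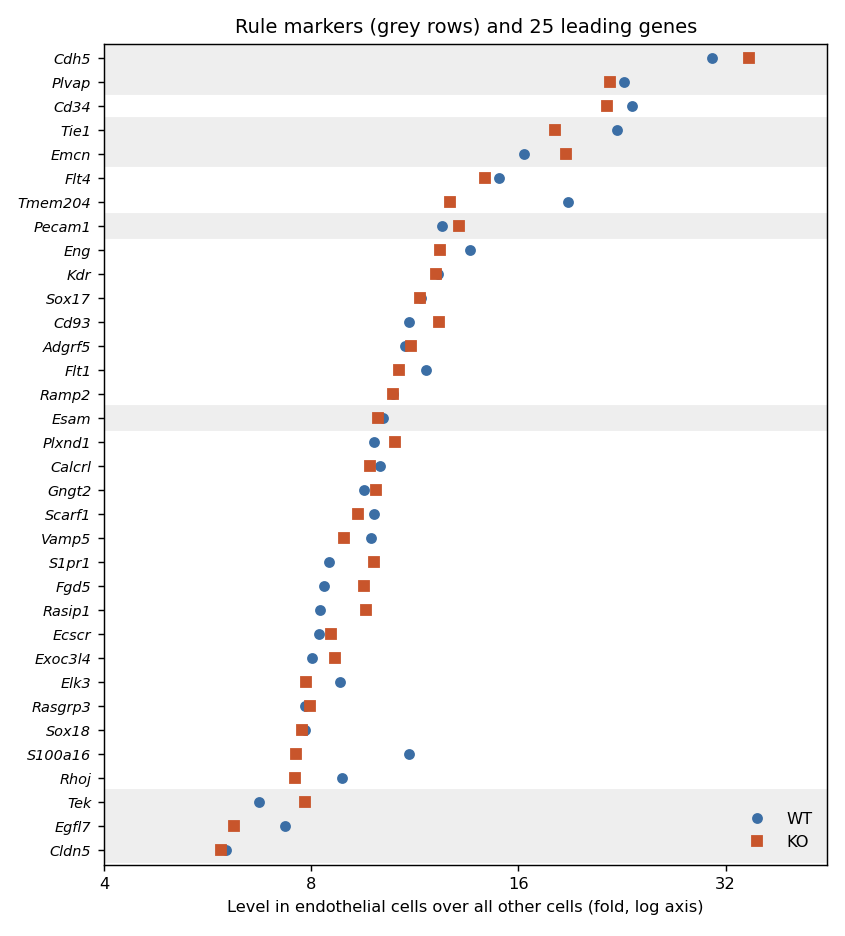
Fold of the level in endothelial cells over all other cells (horizontal log axis, 10 CPM added to each side) for the 9 rule markers, on grey rows, and the 25 leading genes outside the rule, in WT (circles) and KO (squares). Cdh5 stood highest at 30.6 and 34.6, and Tmem204 (18.9 and 12.7) and S100a16 (11.1 and 7.61) lay furthest apart between the libraries.

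Genes of the known kinds of endothelium were used to divide the members. The full arterial, venous and endocardial lists did not separate them: 64.7%, 58.3% and 76.1% of WT members had a UMI in 2 or more genes of the respective list, and 67.4%, 65.0% and 82.5% of KO members. Shorter lists were therefore chosen after the values had been seen. They were Nfatc1, Npr3, Hapln1, Adgrg6, Gata4 and Gata5 for an endocardial range, Gja4, Gja5, Hey1, Hey2, Dll4 and Sox17 for an arterial range, and Aplnr, Nr2f2, Nrp2 and Ephb4 for a venous range. A member entered a range with a UMI in 2 or more genes of its list and in fewer than 2 of each other list. The ranges are cuts through a continuum and no cell types. They held 94, 51 and 103 WT members and 87, 34 and 96 KO members for endocardial, arterial and venous, 65 WT and 59 KO members met several lists, and 152 and 101 met none. Many cells lay near the cut: 201 WT and 162 KO members had a UMI in exactly 1 gene of the endocardial list, and 73 and 56 in exactly 2. Overlap was smallest between arterial and venous, which 8 WT and 8 KO members met together. It was 34 and 37 for endocardial and venous and 27 and 20 for endocardial and arterial. The arterial list was met by the fewest members, 84 in WT and 59 in KO. As the lists were also chosen after the values had been seen, these overlaps do not measure how separate the kinds are.

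Genes outside the short lists that stood high in the endocardial range were ranked by the lower of their folds in the 2 libraries, so that a like direction in both was part of the choice. Cdkn1c, an inhibitor of cyclin-dependent kinases (chr7:143458339-143461050, minus strand), stood at 3899 CPM in the WT range (843 UMIs, 3641 to 4172) and at 882 CPM in the remaining WT members. In KO it stood at 4625 CPM (1159 UMIs, 4363 to 4899) and at 1000 CPM in the rest (999.7 before rounding). With 20 CPM added to each side, these are folds of 4.35 and 4.56. Fn1, which encodes the matrix protein fibronectin, was 3.10-fold and 3.19-fold higher in the range, at 2539.5 CPM in WT and 2845 CPM in KO. Igf2r, which clears IGF2 and sorts lysosomal enzymes, was 2.91-fold and 3.31-fold higher, and Igfbp5, an IGF-binding protein, 2.91-fold and 3.55-fold.

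Transcription factors with a role in the heart that were not used for the cut went both ways. Hand2 was at 162 CPM in the WT range against 54.0 CPM in the rest, and at 311 against 69.6 CPM in KO. Tbx20 was 3.24-fold higher in WT and 3.05-fold in KO. Mef2c was lower in the range, at 92.5 against 269.7 CPM in WT and 104 against 346 CPM in KO. Nrg1, the neuregulin by which endocardium signals to heart muscle, was 2.71-fold and 2.98-fold higher on 17 and 22 UMIs. Ece1, the enzyme that activates endothelin, was 2.06-fold and 2.68-fold higher. The 12 cardiac muscle markers summed to 1189 CPM in the WT range (1048 to 1343) and 1186 CPM in the rest (1114 to 1261), and to 929.8 CPM (814 to 1057) and 981 CPM (914 to 1052) in KO, so that their level was alike inside and outside the range within counting error. Of single endothelial genes, some stood lower in the range and some higher. Cd34 was at 0.385-fold in WT and 0.443-fold in KO and Pdgfb at 0.438-fold and 0.407-fold. Tek, a rule marker, was 1.63-fold and 1.50-fold higher. Apln, the apelin ligand of sprouting vessels, had 1 UMI in the WT range and 0 in the KO range, against 50 and 44 in the remaining members.

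The arterial range was led by Sat1, which encodes the rate-limiting enzyme of polyamine breakdown. Sat1 stood at 516 CPM in the WT range (59 UMIs, 392.5 to 665) and 98.5 CPM in the rest, and at 798 CPM (79 UMIs, 631 to 994) and 119 CPM in KO, folds of 4.52 and 5.87. The gene listed as 8430408G22Rik was at 192 against 27.2 CPM in WT and 434 against 33.5 CPM in KO. S100a11, a calcium-binding protein, was 3.17-fold and 4.55-fold higher. Igfbp3 (2.93 and 3.28), Vegfc, the lymphangiogenic ligand (2.44 and 2.61), and Unc5b, a netrin receptor of arteries (2.55 and 1.86), belong to the full arterial list but were not used in the cut, and each was higher in the range in both libraries. Efnb2, the classical arterial ephrin, was 1.56-fold and 2.24-fold higher. Values by range are not given here for the other genes of the full arterial list outside the cut, such as Nrp1 and Jag1. Emcn, which marks veins and capillaries in the adult, was 1.69-fold and 1.86-fold higher in the arterial range, and as a rule marker it describes selected cells only.

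In the venous range the folds of the leading genes were smaller. Flt4 was at 435 CPM in the WT range and 217 CPM in the rest, and at 399 and 218 CPM in KO. Itga6, the laminin-binding integrin chain, was 1.72-fold and 1.74-fold higher. Cldn5, the tight-junction claudin of the blood-brain barrier, was 2.05-fold and 2.20-fold higher. Cldn5 is a rule marker, so that its values describe selected cells. Apln was 2.09-fold and 1.69-fold higher in this range, which was cut partly on its receptor gene Aplnr, but in KO its level was higher still in members that met no list, at 87.1 CPM on 21 UMIs against 68.2 CPM on 19. Cdkn1c (0.167 and 0.177) and Fn1 (0.216 and 0.282), which stood high in the endocardial range, stood low in the venous range in both libraries.

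**Figure D3:**
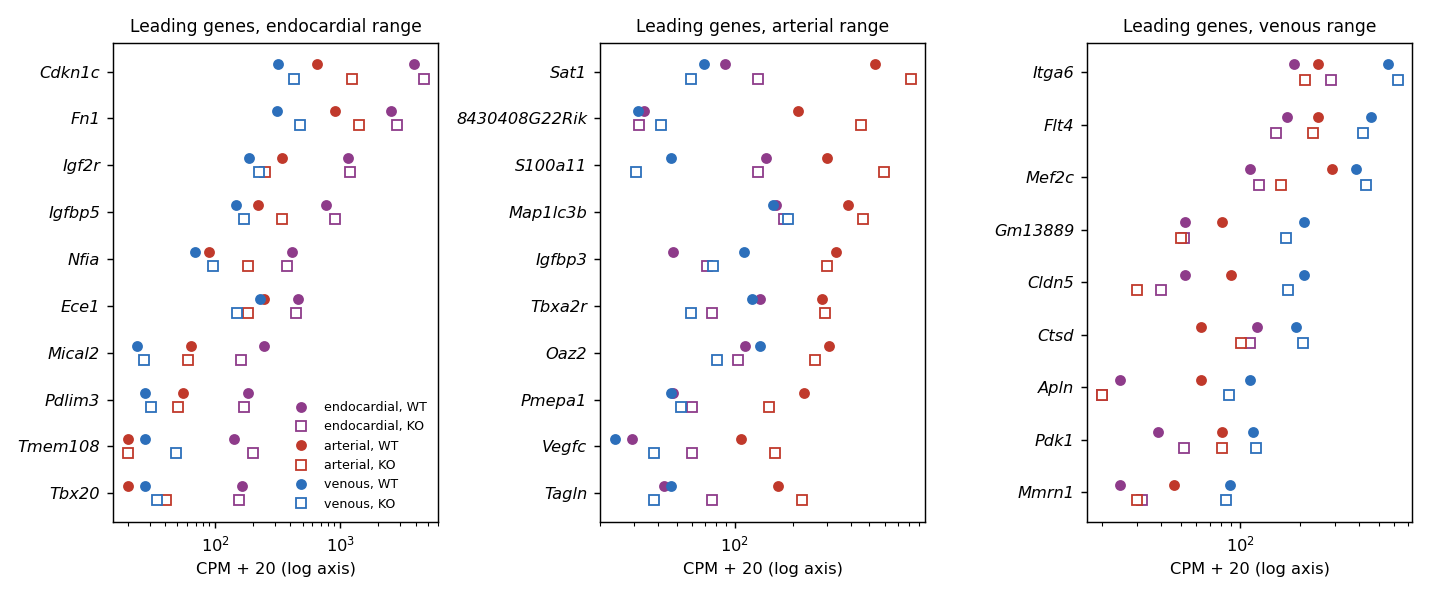
Level of 9 or 10 leading or listed genes of each range (CPM plus 20, log axis) in the endocardial, arterial and venous ranges, colours as keyed; filled circles are WT and open squares KO, each point 1 library. In each panel the named range stands furthest right for nearly every gene, which the choice of genes that lead that range favours. Cdkn1c was at 3899 CPM in WT and 4625 CPM in KO in the endocardial range.

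The share of members that met each list was compared between genotypes, at the depth sequenced and at 1000 UMIs. The endocardial list was met by 32.9% of WT and 37.4% of KO members, and by 17.5% and 17.8% after thinning, a log2 ratio of 0.02 (−0.40 to 0.45). The venous list was met by 30.8% and 36.6%, and by 9.63% and 11.9% after thinning (0.31, −0.26 to 0.88). The arterial list was met by 18.1% and 15.6%, and by 7.66% and 4.51% after thinning (−0.76, −1.58 to 0.05), which is 35 and 17 cells. All 3 intervals include 0. At this number of cells a halving of the arterial share and no difference both lie inside the interval, so that a difference was not detectable.

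The targeted gene was at the limit of detection in these cells. Prdm6 (chr18:53463583-53575907, plus strand, GRCm38), which encodes a histone methyltransferase, had 3 UMIs in 3 WT members and 1 UMI in 1 KO member, so no ratio is given. In all other cells it had 101 UMIs in WT and 58 in KO, a log2 ratio of −0.66 (−1.15 to −0.18). Reads from the 3′ end do not tell the deleted allele from the intact one.

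The levels of most genes were close between KO and WT members. Of 6477 genes with at least 50 UMIs in the members of both libraries together, 16 were at least 2-fold higher in KO (0.247%) and 24 at least 2-fold lower (0.371%). At 1.5-fold, 177 were higher (2.73%) and 299 lower (4.62%). The median log2 ratio was −0.03, and 90% of the genes lay between −0.57 and 0.48. Over the same genes in all other cells, where counts are larger, 6 were 2-fold higher and 6 lower. The counts call genes by size alone, and only 7 of the 40 genes past 2-fold had at least 200 UMIs.

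Klf2 was the 1 gene of the endothelial, subtype and pathway lists past 2-fold. It encodes a transcription factor that flow induces in endothelial cells (chr8:72319033-72321656, plus strand). It had 168 UMIs in WT members (157 CPM, 134 to 183) and 81 in KO members (76.8 CPM, 61.0 to 95.4), a log2 ratio of −1.03 (−1.43 to −0.64). Klf2 UMIs were in 115 of 465 WT and 56 of 377 KO members, with at most 4 and 5 UMIs in a cell, so the difference did not come from a few cells. At 1000 UMIs per cell the shares were 14.4% and 6.90%, and in erythroid cells 0.833% and 0%. In all other cells, which include endothelial cells with fewer than 3 rule markers, Klf2 had 136 and 95 UMIs, a log2 ratio of −0.38 (−0.77 to 0.01). The difference between the 2 ratios was −0.66 (−1.19 to −0.12). Klf2 stood lower in KO in each range: 194 against 91.8 CPM in the endocardial, 131 against 60.6 CPM in the arterial and 134 against 39.5 CPM in the venous range. The arterial values rest on 15 and 6 UMIs and their ratio of −1.11 has an interval that includes 0 (−2.77 to 0.33). Among members that met no list it had 44 and 11 UMIs (−1.69, −2.79 to −0.71), and among those that met several 32 and 30 (−0.16, −0.93 to 0.60).

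The sum of the flow-related genes was lower in KO, and without Klf2 it was not set apart from other lists. Of the 10 genes of the shear stress list, 8 had at least 50 UMIs, with a median log2 ratio of −0.31 against −0.03 over all genes. Klf2 and Ccm2, a gene of cerebral cavernous malformation (57 and 34 UMIs, −0.73), were past 1.5-fold lower, 2 of 8 against 4.62% of all genes, and 0 were past it higher, against 2.73%. Ccm2 was not past it with at least 2 rule markers asked for (−0.46, −0.97 to 0.05). The same held without members that carried 4 or more markers of another type (−0.58, −1.31 to 0.13). Klf4, the close relative of Klf2, had 25 and 30 UMIs (0.28, −0.53 to 1.11). Nos3, the endothelial nitric oxide synthase, had 76 and 63 UMIs (−0.25, −0.76 to 0.25), Heg1, the receptor that binds the CCM complex, 78 and 54 (−0.51, −1.04 to 0.01), and Thbd, thrombomodulin, 61 and 47 (−0.36, −0.94 to 0.22). The sum over the list had a log2 ratio of −0.38 (−0.53 to −0.23) in members and −0.12 in other cells. Klf2 supplied 168 of its 867 WT UMIs. Without Klf2, a sum formed after the values were seen, the list had 699 and 576 UMIs, a log2 ratio of −0.26 (−0.42 to −0.10) in members and −0.12 (−0.18 to −0.05) in other cells. That interval overlaps that of the endothelial genes outside the rule (−0.13, −0.19 to −0.07), and the stress and dissociation list was as low (−0.25, −0.45 to −0.05), so nothing here sets the list without Klf2 apart.

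Among the 25 endothelial transcription factors, 20 had at least 50 UMIs, with a median log2 ratio of −0.17. Klf2, Sox7 and Bcl6b were past 1.5-fold lower, 3 of 20 against 4.62% of all genes, and 0 were past it higher, against 2.73%. Sox7, a SOXF factor, had 91 UMIs in WT and 50 in KO (−0.84, −1.37 to −0.33), and Bcl6b, a zinc-finger repressor, 47 and 26 (−0.84, −1.59 to −0.11). In other cells these ratios were −0.48 and −0.44. Bcl6b was at −0.40 (−1.21 to 0.40) with at least 4 rule markers asked for. Sox7 was lower in KO in each of the 3 ranges, with 17 and 10, 16 and 10, and 14 and 8 UMIs in the endocardial, arterial and venous ranges, every interval including 0. Sox17 (257 and 204 UMIs, −0.31) and Lmo2, an adaptor of the SCL complex (182 and 133, −0.43), were lower by less, Fli1 was higher at 318 and 401 UMIs (0.35, 0.14 to 0.57), and it was higher in other cells too (0.40).

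The endocardial sum had a log2 ratio of 0.09 (0.00 to 0.18) in members and −0.11 in other cells, and the median over 17 genes was 0.13. Its interval included 0 when at least 4 or at least 2 rule markers were asked for, and when the rule was applied to thinned cells. Hapln1, which links hyaluronan to proteoglycans in cardiac jelly, had 596 UMIs in WT and 700 in KO (0.25, 0.09 to 0.41). Gata6 had 123 and 164 (0.43, 0.09 to 0.78) against −0.42 in other cells, while Gata4 had 145 and 100 (−0.52, −0.90 to −0.14) against −0.74. Tmem100, a BMP9 target of arteries and endocardium, had 42 and 71 UMIs (0.78, 0.21 to 1.36) and was the 1 gene of 17 past 1.5-fold higher, against 2.73% of all genes. Its UMIs were not concentrated in the endocardial range, with 10 and 17 there and 11 and 19 in the smaller arterial range. Nfatc1, the calcineurin-dependent factor of endocardium, had 87 and 61 (−0.49, −0.99 to −0.00). The members of the list therefore did not move together. Of the genes that stood high in the endocardial range, Fn1 and Cdkn1c were higher in KO members and Igf2r was at 563 and 570 UMIs (0.04, −0.13 to 0.21). Fn1 had 1235 and 1420 UMIs (0.22, 0.11 to 0.33) against −0.11 in other cells. Cdkn1c had 1595 and 1963 UMIs (0.32, 0.22 to 0.41) against −0.23 in other cells, with up to 42 UMIs in a WT and 63 in a KO member. Within the endocardial, arterial and venous ranges the ratios were 0.16, 0.64 and 0.63 for Fn1 and 0.25, 0.97 and 0.45 for Cdkn1c. In members that met no list they were −0.26 (−0.56 to 0.03) and −0.09 (−0.38 to 0.19), and in members that met several 0.01 (−0.24 to 0.26) and 0.03 (−0.18 to 0.24).

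Of the genes that led the endothelial cells by fold, Tmem204 and S100a16 had the lowest ratios. Tmem204, a membrane protein of endothelial junctions, had 417 UMIs in WT and 281 in KO (−0.55, −0.77 to −0.33) against 0.06 in other cells, a difference of −0.61 (−0.96 to −0.26). S100a16, a calcium-binding protein, had 244 and 169 (−0.51, −0.80 to −0.22) against 0.11. Fgd5 was higher in KO, at 195 and 242 UMIs (0.33, 0.05 to 0.61). Of 25 endothelial genes outside the rule, Tmem100 was past 1.5-fold higher and 0 were past it lower, with a median of −0.17. Over all genes the shares were 2.73% higher and 4.62% lower.

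The arterial sum had a log2 ratio of −0.02 (−0.13 to 0.09), which was above 0 under both other scalings and after thinning, and the venous sum −0.13 (−0.25 to −0.02), with −0.13 and −0.18 in other cells. The interval of the venous sum included 0 under both other scalings and without members that carried 4 or more markers of another type. Of 13 arterial genes with at least 50 UMIs, Gja5 (23 and 38 UMIs, 0.74) and Vegfc (33 and 54, 0.73) were past 1.5-fold higher and Unc5b (78 and 47, −0.71) and Epas1 (36 and 23, −0.63) past it lower, against 2.73% of all genes higher and 4.62% lower. The connexin genes went apart: Gja5 was higher and Gja4 (79 and 59 UMIs, −0.40) was lower, and the intervals of both include 0. Of 8 venous genes, Aplnr, the apelin receptor, was past 1.5-fold lower, at 154 UMIs in WT (144 CPM, 122 to 169) and 93 in KO (88.2 CPM, 71.2 to 108), a log2 ratio of −0.71 (−1.10 to −0.33) against −0.15 (−0.43 to 0.14) in other cells. With the rule applied after thinning, Aplnr was at −0.40 (−0.99 to 0.17). Ephb4, the receptor for ephrin-B2 on veins, was at 102 and 132 UMIs (0.39, 0.01 to 0.78), and its ligand gene Efnb2 at 266 and 324 (0.30, 0.07 to 0.54).

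Signals from the endothelium were examined because mural cells are recruited by them. Pdgfb, the ligand that draws in smooth muscle cells and pericytes, had 102 UMIs in WT members and 59 in KO members (−0.77, −1.26 to −0.29), and was lower in other cells as well (71 and 31 UMIs, −1.05). By range, Pdgfb had 25 and 6 UMIs in the arterial (−1.85, −3.43 to −0.53), 19 and 13 in the venous (−0.63) and 8 and 4 in the endocardial range (−1.21), 42 and 26 in members that met no list (−0.38) and 8 and 10 in those that met several (0.25). All of these intervals but the arterial include 0. Pdgfa (58 and 35, −0.71) and Tgfb2 (84 and 54, −0.62) were past 1.5-fold lower, and Vegfc past it higher, among 13 such genes with a median of −0.21, against 4.62% of all genes lower and 2.73% higher. Tgfb2 was at −0.28 with at least 4 rule markers asked for and at −0.20 with the rule applied after thinning. Edn1, the endothelin by which arch endothelium speaks to NCCs, had 23 and 25 UMIs (0.14, −0.74 to 1.02). Jag1, a Notch ligand, had 57 and 46 (−0.29, −0.88 to 0.30), and Kitl 99 and 99. Angpt2, which loosens endothelial contacts, had 5 UMIs in WT and 0 in KO, and no ratio is given.

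The counts of the lists that follow stand against 2.73% of all genes past 1.5-fold higher and 4.62% past it lower. In the VEGF pathway, where 8 genes had at least 50 UMIs and a median of 0.09, Vegfc was past 1.5-fold higher and 0 were past it lower. Kdr had 523 and 449 UMIs (−0.20, −0.39 to −0.02), Flt1 310 and 270 (−0.18), Flt4 289 and 280 (−0.03) and Nrp1, the neuropilin co-receptor, 163 and 189 (0.23). The angiopoietin sum was −0.24 (−0.41 to −0.07) against −0.18 in other cells. Of 11 Notch genes and 3 angiopoietin genes 0 were past 1.5-fold, and Notch1 had 213 and 207 UMIs (−0.02, −0.31 to 0.26). In the BMP and TGF-beta list, Tmem100 was past 1.5-fold higher and Bambi, a decoy receptor, lower among 18, but Bambi was at 0.021 (−0.93 to 0.95) with the rule applied after thinning. Of 15 matrix genes, Fbln1 was past it lower (116 and 67 UMIs, −0.77). The collagen IV genes Col4a1 (2649 and 2444 UMIs, −0.10) and Col4a2 (973 and 877, −0.13) lay close to the median. Of 13 genes of the endothelial to mesenchymal transition list, Tgfb2 and Acta2 (170 and 103 UMIs, −0.70) were past 1.5-fold lower, the median was −0.33, and 1 WT member held 20 of the Acta2 UMIs. Of 11 tip cell genes, Kcne3 (20 and 34 UMIs) was past 1.5-fold higher and Unc5b and Pdgfb lower, and of 16 junction genes Gja5 was past it higher. Of 12 ephrin, apelin and guidance receptors, Aplnr and Unc5b were past it lower. Of 8 genes of brain vessels and their barrier, Fzd4 was past it higher and Reck lower, but Reck was at 0.36 (−0.78 to 1.49) with the rule applied after thinning. Fzd4 was at 0.44 with at least 4 and 0.41 with at least 2 rule markers, and at 0.46 after thinning, each interval including 0. Of 4 blood progenitor genes 0 were past 1.5-fold, and Runx1 had 4 and 1 UMIs.

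**Figure D4:**
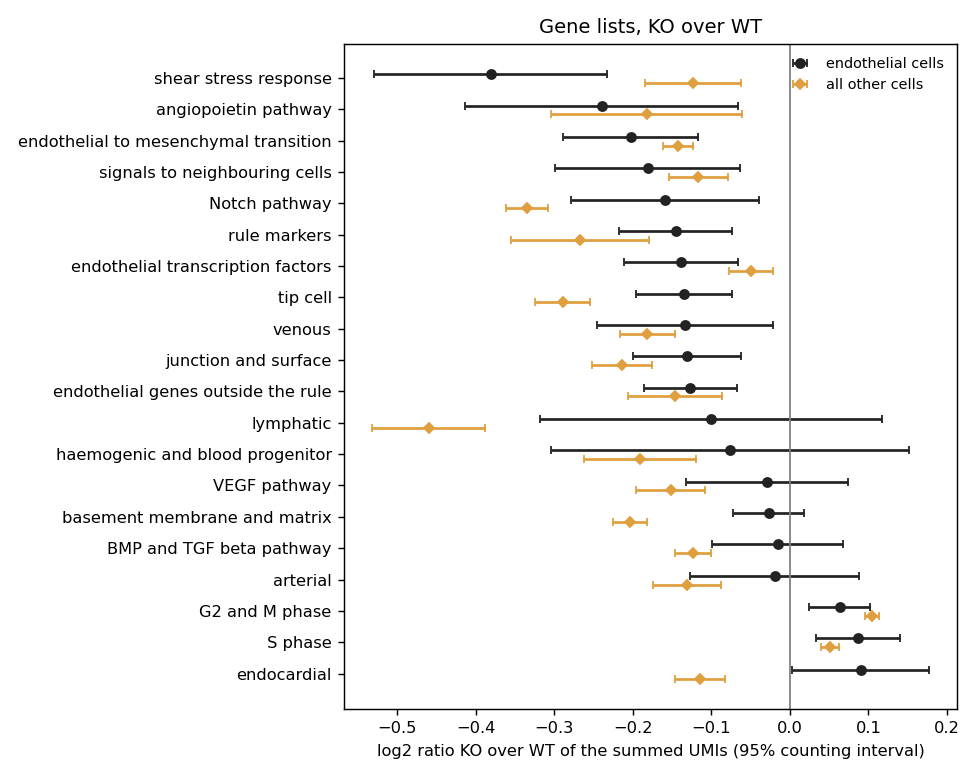
log2 ratio of KO over WT of the summed UMIs of 20 gene lists (horizontal axis) in endothelial cells (circles) and all other cells (diamonds), with 95% counting intervals, 1 library per genotype. Of the 20 lists shown, the shear stress list stood lowest in members at −0.38 and the endocardial list highest at 0.09. Other lists were left out of the figure. Among those, mural markers (−0.40, −0.64 to −0.17), erythroid markers (−0.67) and globins (−1.22) stood lower in members. Macrophage markers (0.48, −0.21 to 1.18) and sex-linked genes (0.63) stood higher.

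The sums of cell cycle genes were close to 0. The S phase sum had a log2 ratio of 0.09 (0.03 to 0.14) against 0.05, and the G2 and M phase sum 0.06 (0.02 to 0.10) against 0.10. With the rule applied after thinning both intervals included 0. Against 2.73% of all genes higher and 4.62% lower, of 37 S phase genes Ccne2, Clspn and Hells were past 1.5-fold higher and 0 past it lower. Of 53 G2 and M genes Nusap1 was past it higher (162 and 275 UMIs, 0.78) and Kif23 lower (193 and 117, −0.70), and other cells showed 0.58 and −0.27.

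The 12 highest and 12 lowest ratios whose interval excluded 0 were mostly those of genes with few UMIs and no known endothelial part. Among the highest, the replication-dependent histone genes Hist1h2ae (55 and 176 UMIs, 1.70) and Hist1h1b (29 and 85, 1.57) and the transcript AY036118 (121 and 290, 1.28) had ratios of 1.71, 1.83 and 1.21 in other cells, so their difference was of like size outside the endothelium. Arhgdib had 35 UMIs in 32 WT members and 75 in 61 KO members (1.12, 0.52 to 1.74), against −0.51 (−0.87 to −0.15) in other cells. Phc3 (14 and 38), Vps33a (17 and 43), Nrk (18 and 42), Krt10 (21 and 46), Vipas39 (16 and 35), Msl3 (29 and 60) and Gpcpd1 (19 and 39) had ratios from 1.06 to 1.46, and from −0.16 to 0.44 in other cells. Nrk was at 0.36 (−1.15 to 1.87) with the rule applied after thinning. Msl3 was at 0.62 (−0.09 to 1.35) without members that carried 4 or more markers of another type. Dqx1 had 48 and 112 UMIs in 21 and 25 members, up to 19 in a single cell, so its ratio of 1.24 rests on few cells.

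Among the lowest, 3 of 12 were globin genes. Hba-x had 1241 and 477 UMIs (−1.36), Hba-a1 215 and 89 (−1.25) and Hbb-y 1625 and 720 (−1.16). Other cells had −1.15 for Hba-x and −0.92 for Hbb-y, and the WT library had 120 erythroid cells against 45 in KO. Cyyr1 was the lowest of the genes that the members carried above other cells, with folds of 5.01 in WT and 2.66 in KO. It had 72 UMIs in 60 WT members (67.4 CPM, 52.7 to 84.8) and 29 in 29 KO members (27.5 CPM, 18.4 to 39.5), a log2 ratio of −1.29 (−1.97 to −0.65) against −0.41 (−0.86 to 0.03) in other cells. Dusp2, a phosphatase of MAP kinases (48 and 21 UMIs, −1.17), also stood above other cells, at 4.05-fold and 2.39-fold. The others were 2310061I04Rik (38 and 12), Alg8 (53 and 21), Atad1 (46 and 19), Tsku (39 and 17), Mov10 (39 and 17), Dbt (45 and 20) and Pigt (104 and 47), with ratios from −1.64 to −1.13 and from −0.56 to −0.25 in other cells.

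**Figure D5:**
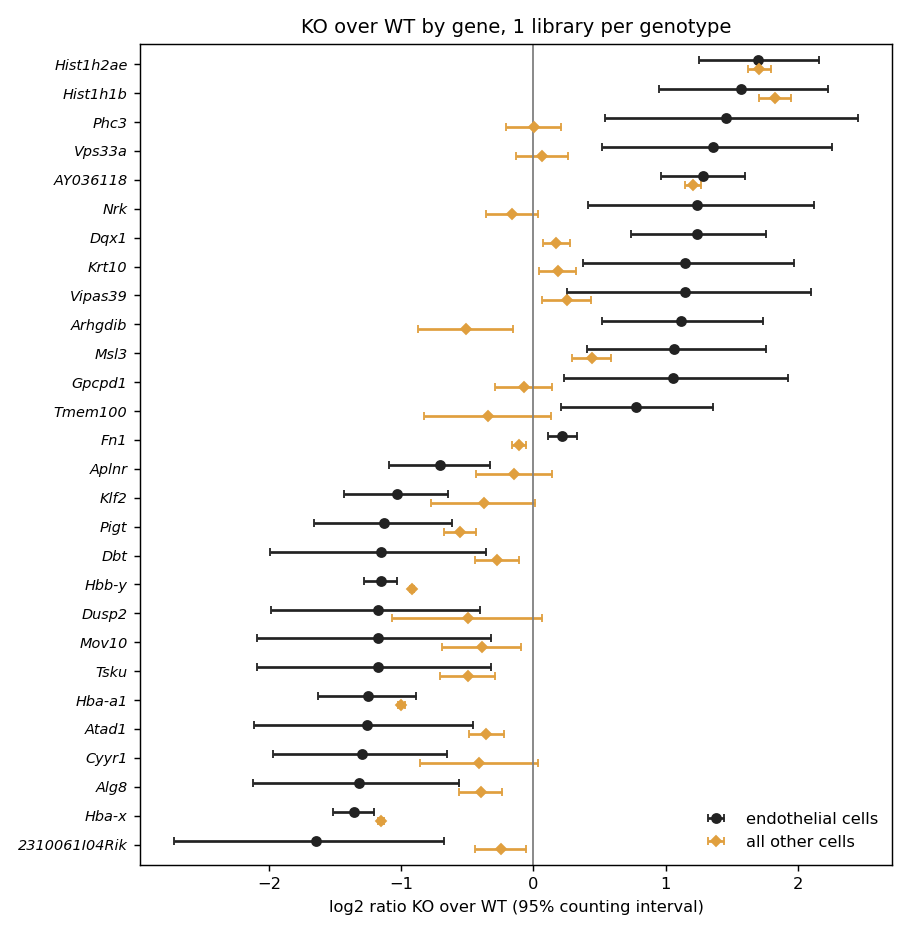
log2 ratio of KO over WT (horizontal axis) in endothelial cells (circles) and all other cells (diamonds) with 95% counting intervals, for the 12 highest and 12 lowest genes and for Klf2, Aplnr, Fn1 and Tmem100, 1 library per genotype. Histone genes had like ratios in both, and Arhgdib stood at 1.12 in endothelial cells and −0.51 in the others. Globin genes were lower in KO in both, with a sum at −1.22 in endothelial cells and −0.94 in the others.

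Sex-linked genes differed in endothelial cells as in the rest. Xist had 222 UMIs in WT members and 409 in KO members (0.90, 0.66 to 1.14) and 1.08 in other cells, and the Y-linked Ddx3y had 52 and 36 (−0.51) and −1.04. The sexes of the embryos were not among the labels, and their part in any ratio was not tested.

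Neural crest markers were counted in members because the deletion is made in that lineage. Without Ets1, which endothelium also uses, a UMI in 1 or more of the 9 markers was found in 55 of 465 WT members (11.8%) and 65 of 377 KO members (17.2%), against 21.8% and 25.4% of other cells. After thinning the shares in members were 4.595% and 6.63%, a log2 ratio of 0.53 (−0.28 to 1.34). Sox10, a neural crest transcription factor, had 10 UMIs in 7 WT members and 23 in 14 KO members. Members with 2 or more of the markers numbered 4 in WT and 9 in KO. These are few cells, and mixed droplets were not separated from single cells.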

How the data were processed

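Single-cell libraries from 1 WT and 1 KO pool were analysed. The deposited values have the unit of a score: the authors aligned reads with Cell Ranger 1.3.1 (build mm10 in the submitters' processing notes, which also name Scanpy), filtered cells on UMIs and genes, used a doublet caller and removed mitochondrial and ribosomal genes per their methods, scaled each cell to the same total of 1641 and took square roots. Squaring and division by the smallest value of a cell gave whole UMIs for 100% of nonzero values within 0.01. The libraries held 20781384 (WT) and 18936857 (KO) UMIs, with medians of 1597 and 1703 per cell.

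UMIs were summed over members of each library. CPM carry exact Poisson intervals, ratios exact conditional intervals, shares of cells Clopper-Pearson intervals, and ratios of shares and differences of ratios delta-method intervals, all of 95%. No ratio of a single gene is given in members where a library had 0 UMIs or where both had 3 or fewer. No doublet caller was run here. No count model was fitted, since 1 library per genotype allows no test. Named genes were the 9 rule markers, the 25 genes with the highest fold in the lower library (at least 50 UMIs in each), the 12 highest and 12 lowest KO over WT ratios with an interval excluding 0 (sex-linked genes apart), genes of 35 lists, and Prdm6. Of 462 listed symbols, 12 were not matched. Erythroid cells had at least 20% globin UMIs and fewer than 3 rule markers. Members and lists were chosen with earlier results of these data known. Coordinates are from GENCODE vM21. Intervals and ratios were tested on simulated data. Python 3.11.15, numpy 2.4.6 and scipy 1.17.1 were used. Alternatives changed the membership rule, scaling, minimum counts and pseudocount.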

Additional observations from a re-analysis of the deposited data

How the results depend on the processing

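No paired analysis was possible because each genotype had 1 library and no test was made. The ratio of endothelial shares kept within its interval under 7 of 8 alternatives, and was −0.48 where the rule was applied after thinning to 1000 UMIs. Under the same alternative the arterial sum was 0.12, the venous sum −0.25, Bambi 0.021 and Reck 0.36, the last pair against −0.75 and −0.84 as reported, on fewer cells. With TMM scaling the G2 and M phase sum was 0.11. The count of genes past 2-fold was 253 with a minimum of 20 UMIs and 7 with 200, against 40, and from 39 to 59 under the alternatives of membership and scaling. Of the 25 leading genes, 13 stayed with 1 CPM added and 15 with 100 CPM. Median of ratios and TMM scaling take off a shift of −0.03 and −0.04, so that every ratio was higher by that much, and the arterial sum became 0.0079 and 0.024. The interval of the endocardial sum included 0 under 3 of the alternatives of membership. Ratios of single genes stayed inside their interval in 527 of 540 recalculations, and those of Klf2 lay between −1.10 and −0.91. Leaving out each library in turn would leave no comparison. Further choices, leaving globin UMIs out of the totals the sum of shear stress genes without Klf2, and the short range lists, were made after seeing the data. Depth limits what can be seen for genes of few UMIs, and embryos could not be told apart.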
